A study of Homo sapiens with 2 samples.

Results

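Histone variants and the 2 factors SLBP and NPAT were followed in NUGC4 cells after ANO5 knockdown. The rule took each gene's transcript cluster (the probe group by which the array reads a gene) by its platform gene symbol, keeping the cluster with the highest mean where a gene had several. Of 9 listed genes, 8 matched a cluster, each exactly 1, among 14526 named genes in all. These were the variants H2AX, H2AZ1, H2AZ2, MACROH2A1, H3-3B and H1-10, and the factors SLBP and NPAT. The H3.3 gene H3-3A is not analysed here.

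The study compared 2 arrays of NUGC4, an established human gastric cancer cell line. One culture was given a negative control siRNA, and the second was given an ANO5 siRNA (ANO5 encodes the membrane protein anoctamin 5), each at 20 nmol/l, added 24 h after the cells were seeded. Both cultures thus carried an siRNA and the transfection reagent, and the knockdown rests on 1 ANO5 siRNA treatment. The labels used here do not say whether this was 1 sequence or a pool. With 1 array in each group there was no replicate check, so no standard error or p-value is given, and every difference below compares these 2 RNA samples.

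Histone proteins package DNA. Most are made from replication-dependent genes, whose mRNAs are produced in S phase and end in a stem-loop instead of a poly(A) tail. Variants are made through the whole cell cycle, mostly from ordinary polyadenylated mRNAs, and replace the replication-dependent histones at particular places in chromatin. NPAT activates the replication-dependent genes, and SLBP binds the stem-loop of their mRNAs and is needed for their 3′ end formation, export and translation.

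All values are log2 signals as deposited, and every difference is ANO5 siRNA minus control. A gene was counted as lower or higher where it differed by at least 1.5-fold. Background counts used the 9735 named genes whose mean over both arrays was at least 6.05, the 33rd percentile (the measured genes). All 8 matched genes passed this limit. Because the limit is on the mean, a gene can pass it through 1 array. Of the 8 genes H1-10 did so, with 6.87 in the control and 5.85 after ANO5 siRNA, and some genes of the lists below did too. ANO5 itself read 6.83 in the control and 3.67 after its siRNA, a difference of -3.16, at a mean below the measured range. The second value lies below the median level of the olfactory receptor genes, 4.14, which most tissues do not express, so the size of this drop is not known: with an offset of 32 on the linear scale the difference was -1.70. The arrays had medians of 7.69 and 7.68. The epithelial markers EPCAM, KRT8, KRT18, KRT19 and CDH1 read 14.6 or more on both arrays. Of the listed fibroblast and blood markers in the table, all 9 read 8.03 or less, and the defining leukocyte gene PTPRC read 3.68 and 3.49.

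Of the 8 genes, 4 were lower, 1 was higher and 3 lay within 1.5-fold. Among all measured genes 20.1% were lower and 23.2% were higher by the same rule. The variants did not move as a block: H2AX, H2AZ1 and, at low signal, H1-10 were at least 2-fold lower, H2AZ2 and MACROH2A1 differed little, and H3-3B was higher. SLBP was 2.19-fold lower and NPAT 1.42-fold lower, which is under the 1.5-fold limit for NPAT. In bulk RNA, fewer cells in S phase and less mRNA per cell cannot be told apart.

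**Figure D1:**
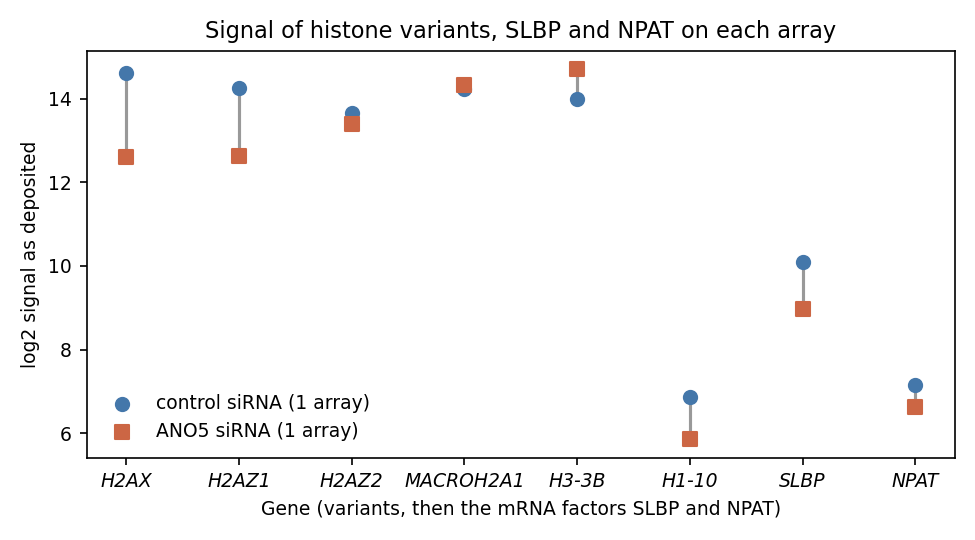
Log2 signal as deposited (vertical axis) of 6 histone variants and of SLBP and NPAT on the control siRNA array (circles) and the ANO5 siRNA array (squares), 1 array each, with a line joining the values of a gene. The squares of H2AX and H2AZ1 lie furthest below their circles, and only those of H3-3B and MACROH2A1 lie above.

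H2AX showed the steepest difference of the 8. It encodes H2A.X, the variant that is phosphorylated around DNA double-strand breaks. It read 14.63 in the control and 12.62 after ANO5 siRNA, a difference of -2.01 or 4.03-fold lower. A difference at or below this was seen for 3.24% of the measured genes. H2AX is unusual among variants in that its gene gives both a stem-loop mRNA and a longer polyadenylated one. The array values do not separate these 2 forms.

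The 2 genes of H2A.Z differed from each other. H2A.Z is a variant placed next to active promoters, and H2AZ1 and H2AZ2 encode nearly the same protein. H2AZ1 read 14.25 in the control and 12.64 after ANO5 siRNA, a difference of -1.61 or 3.05-fold lower. Of the measured genes 5.24% reached or passed this downwards. H2AZ2 read 13.67 and 13.40, a difference of -0.27, which was matched or passed downwards by 31.8% of the measured genes. The difference of H2AZ1 was thus lower than that of its paralog by 1.34 on the log2 scale.

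MACROH2A1 encodes macroH2A1, an H2A variant with a large extra domain that is enriched on the inactive X chromosome. It read 14.23 in the control and 14.33 after ANO5 siRNA, a difference of 0.10. Its paralog MACROH2A2, from the wider list of variants, read 11.39 and 9.81 and was 2.99-fold lower. The differences of the macroH2A genes were 1.68 apart on the log2 scale. Both H2A.Z and macroH2A therefore had 1 paralog lower by more than 2-fold and 1 within 1.5-fold.

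H3-3B encodes H3.3, the H3 variant laid down at active genes and other sites without being tied to DNA replication. It was the only 1 of the 8 genes counted as higher, with 13.99 in the control and 14.71 after ANO5 siRNA, a difference of 0.72 or 1.65-fold. Differences as high or higher were seen for 18.5% of the measured genes, so a difference of this size was not rare on these arrays. H3-5, a retrocopy of H3-3B, read 9.68 and 10.25 and differed by 0.57. Probes may share signal between these near-identical sequences, and the 2 values need not be independent.

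H1-10 encodes H1.10 (H1X), a linker histone that binds DNA between nucleosomes. It read 6.87 in the control and 5.85 after ANO5 siRNA, a difference of -1.02 or 2.03-fold lower. These are low signals: of 105 olfactory receptor genes 0 read as high on the control array and 3 did on the ANO5 siRNA array. Background may therefore limit this fold, and with the offset of 32 the difference was -0.73, under 2-fold. No other variant or factor of the 8 had an olfactory receptor gene at or above it on either array.

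Other variants, from a wider list, also went both ways. Of 14 listed genes 7 were in the table and 4 were measured. Beside 20.1% lower and 23.2% higher of all measured genes, 2 of the 4 were lower, 1 higher and 1 within 1.5-fold. Their median of -0.47 has no settled direction: it was 0.21 over all 7 genes with no filter on mean level, and 0.57 with the filter at the 50th percentile. Beside MACROH2A2, CENPA, the H3 variant of centromeres, was lower, with 7.80 in the control and 6.29 after ANO5 siRNA (2.85-fold). H2AJ, an H2A variant, was 2-fold higher, with 11.18 and 12.18.

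Of the 2 factors, SLBP had the larger difference. It read 10.09 in the control and 8.96 after ANO5 siRNA, a difference of -1.13, and 9.74% of the measured genes differed as much or more downwards. SLBP protein is itself abundant only in S phase, which is set mainly by its translation and breakdown. NPAT read 7.14 and 6.63, a difference of -0.51 that 22.3% of the measured genes reached or passed. NPAT lies head to head with the kinase gene ATM, and their annotated starts are 429 bases apart in the RefSeq promoter table (GRCh38.p14). ATM read 8.18 and 7.85, a difference of -0.33, also within 1.5-fold.

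Set side by side, the polyadenylated variants and the factors were not separated. The 6 variants had a median difference of -0.645 (1.56-fold lower) and ran from -2.01 to 0.72. SLBP and NPAT had a mean of -0.82, and all measured genes a median of 0.07. The median of the variants was 0.175 above the mean of the factors, a small gap beside the range of 2.73 among the variants. H2AX and H2AZ1 lay below both factors, H1-10 lay between them, and H2AZ2, MACROH2A1 and H3-3B lay above both. The median of the variants hangs on single genes: without H2AX, and likewise without H1-10, it was -0.27, within 1.5-fold. These were omissions chosen after the values were seen.

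**Figure D2:**
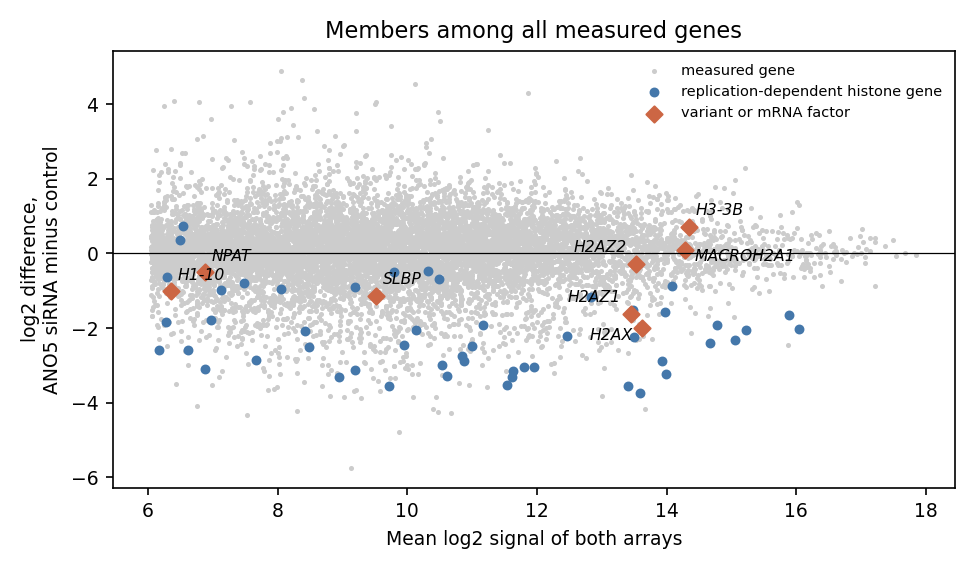
Log2 difference, ANO5 siRNA minus control (vertical axis), against the mean log2 signal of both arrays (horizontal axis) for the 9735 measured genes (grey), the measured replication-dependent histone genes (blue) and the 8 variants and factors (red diamonds). Most blue points lie below -0.51, the value of NPAT, whereas the diamonds run from -2.01 to 0.72.

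The replication-dependent histone genes, the clients of NPAT and SLBP, were mostly lower. Of 50 measured genes 46 were lower, 1 was higher and 3 lay within 1.5-fold, with a median of -2.28 or 4.86-fold lower. The shares of all measured genes were 20.1% lower and 23.2% higher. A difference lower than that of SLBP was seen for 39 of the 50, and lower than that of NPAT for 46. The steepest were H2BC14 (-3.73), H1-5 (-3.55) and H3C2 (-3.55). The 4 exceptions were H3C6 (0.73), H2AC25 (0.36), H3C13 (-0.47) and H4C12 (-0.50). The signals of H3C6 (6.17 in the control and 6.90 after ANO5 siRNA) and of H2AC25 (6.32 and 6.68) were low. Some genes counted as lower passed the limit of 6.05 on the mean through the control array alone. They were H2BC17 (7.47 in the control and 4.88 after ANO5 siRNA), H2BC13 (8.42 and 5.33) and H2AC15 (7.92 and 5.33). H4C2 (7.19 and 5.36) and H4C16 (6.60 and 5.98) passed in the same way. Background may limit the folds of such genes, and their counts as lower are not independent of the limit. With no filter on mean level the median of the replication-dependent genes was -2.07. H3C13, H2BC17, H2BC13, H2AC15, H4C2 and H4C16 were named after their values were seen. Because these genes resemble each other closely in sequence, a probe may read more than 1 of them, and their counts are not counts of independent genes. How the RNA was primed and labelled was not taken into account. The values do not tell whether stem-loop or polyadenylated mRNAs of these genes were read.

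By class, the variants can be set against the replication-dependent genes that make the same kind of histone. The 13 measured H2A genes had a median of -2.02, next to the -2.01 of H2AX, and 7 of them lay lower than H2AX and 8 lower than H2AZ1. H2AX and H2AZ1 thus lay inside the spread of the replication-dependent H2A genes, while MACROH2A1, H2AZ2 and H2AJ lay at its upper end or above. Of the 7 measured H3 genes, 6 lay lower than H3-3B, and their median was -2.50. All 4 measured H1 genes lay lower than H1-10, and their median corresponds to 6.30-fold lower. These are comparisons of differences between genes within the same pair of arrays, with no test.

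**Figure D3:**
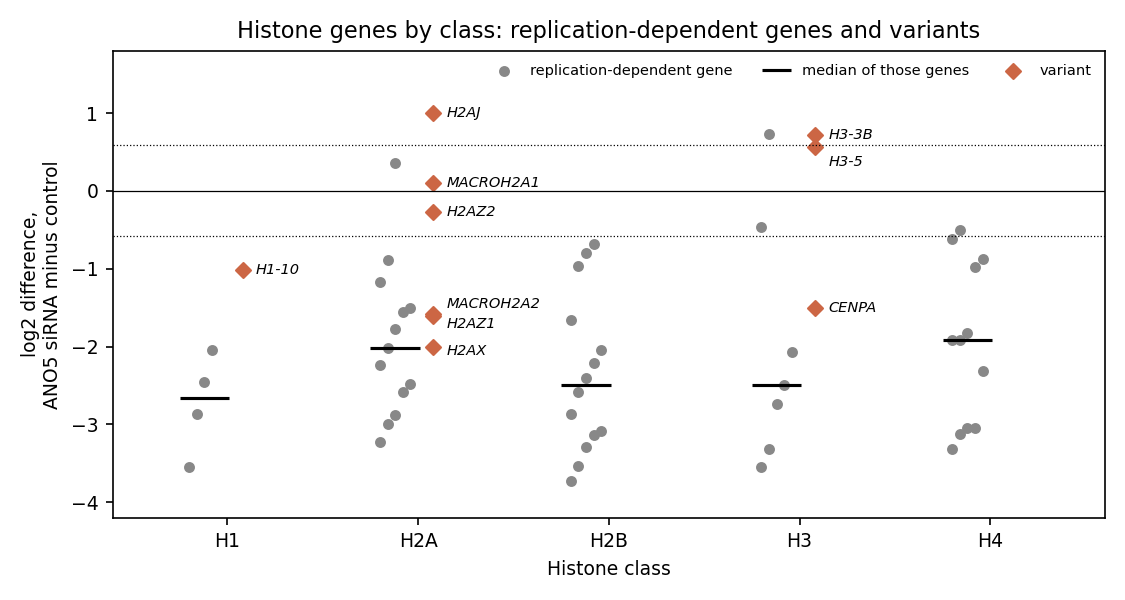
Log2 difference, ANO5 siRNA minus control, of measured histone genes by class: grey points are replication-dependent genes, the black bar is their median, red diamonds are variants and the dotted lines mark 1.5-fold. H2AX (-2.01) lies at the H2A median (-2.02), whereas H2AZ2 (-0.27), MACROH2A1 (0.10), H2AJ (2-fold higher) and H3-3B (0.72) lie well above the medians of their classes.

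The stretches before the starts of H2AX, H2AZ1, H2AZ2 and H3-3B are shown because these genes carry the contrast between lower, little changed and higher variants. Each is 120 bases of RefSeq sequence (GRCh38.p14), 5′ to 3′ on the gene's own minus strand, ending just before the gene's outermost annotated start. For H2AZ2 that start lies 39 bases upstream of the start in the promoter table, and for the other 3 genes they are the same. Capitals mark the CCAAT box (CCAAT, or ATTGG on the other strand), the TATA box (TATAAA) and the octamer (ATGCAAAT), a site known from H2B promoters.
H2AX (chr11:119095466-119095585): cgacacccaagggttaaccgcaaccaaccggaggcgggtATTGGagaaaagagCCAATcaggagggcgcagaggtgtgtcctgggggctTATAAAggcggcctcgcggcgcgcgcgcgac
H2AZ1 (chr4:99950276-99950395): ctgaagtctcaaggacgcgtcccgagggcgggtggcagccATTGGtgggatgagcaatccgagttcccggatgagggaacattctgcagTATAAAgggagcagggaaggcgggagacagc
H2AZ2 (chr7:44848127-44848246): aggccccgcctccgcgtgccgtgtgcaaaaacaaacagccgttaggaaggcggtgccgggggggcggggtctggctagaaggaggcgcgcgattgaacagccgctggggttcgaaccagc
H3-3B (chr17:75779780-75779899): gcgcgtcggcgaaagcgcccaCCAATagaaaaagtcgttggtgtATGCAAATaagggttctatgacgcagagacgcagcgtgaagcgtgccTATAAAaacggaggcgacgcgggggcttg

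The TATA box of H2AX and that of H2AZ1 begin 31 bases before the start, and that of H3-3B 29 bases before. In the printed window of H2AZ2 none of the 3 motifs was found. The counts that follow are for the 250 bases before the start in the promoter table, which for H2AZ2 reach 39 bases closer to the gene than the printed window and also extend further upstream. On both strands, the CCAAT box occurred 4 times for H2AX, 3 times for H2AZ1, 4 times for H2AZ2 and 4 times for H3-3B. Some CCAAT box was found in 11240 of the 35116 windows of all genes, and in 45 of 54 windows of the replication-dependent histone genes. TATAAA was found for H2AX, H2AZ1, H3-3B and H1-10, and not for H2AZ2, MACROH2A1, SLBP or NPAT. It occurred in 10.7% of all windows and in 37 of the 54 of replication-dependent genes. The octamer was found for H3-3B alone of the 8 genes, against 1.63% of all windows and 21 of the 54. The CCAAT box and TATAAA were both found for H2AX and H2AZ1, which were lower, and for H3-3B, which was higher. H1-10, which was lower, had TATAAA and no CCAAT box. TATAAA was absent for H2AZ2, MACROH2A1 and NPAT, which lay within 1.5-fold, and also for SLBP, which was lower. A CCAAT box was found for NPAT and at start 2 of MACROH2A1, and not at start 1 of MACROH2A1 or for SLBP. Whether a motif relates to the differences was not tested. The E2F motif, taken as TTTGGCGC, TTTCCCGC, TTTGCCGC or TTTCGCGC, was found for 0 of the 8, against 2.79% of all windows and 10 of the 54. The cell cycle motif CHR, taken as TTTGAA, was found for H2AX alone of the 8, against 13.3% of all windows and 20 of the 54. A match describes the letters in the window and shows no binding.

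Around SLBP, the machinery that cuts histone pre-mRNA was in part lower and in no case higher. Of 18 measured genes 6 were lower, 0 were higher and 12 lay within 1.5-fold, beside 20.1% lower and 23.2% higher of all measured genes. The median of the 18 was -0.33. ZNF473 (ZFP100), which links SLBP to the U7 particle, had the largest difference, with 10.43 in the control and 8.61 after ANO5 siRNA (3.53-fold lower). SRRT (ARS2), a cap complex partner, was 2.51-fold lower and CPSF3, the nuclease that makes the cut, 2.14-fold lower. LSM11, a subunit found only in the U7 particle, was 1.67-fold lower, with 6.92 and 6.18, whereas its partner LSM10 differed by 0.26. CASP8AP2 (FLASH), which works with NPAT at histone genes and with LSM11 in processing, read 8.58 and 8.56, a difference of -0.02.

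Of 11 measured genes of histone mRNA decay and translation 2 were lower, 2 were higher and 7 lay within 1.5-fold, with a median of -0.14. These shares are near those of all measured genes, 20.1% lower and 23.2% higher. LSM4, part of the ring that binds decaying mRNAs, had the steepest value, with 13.71 in the control and 10.74 after ANO5 siRNA (7.84-fold lower). ERI1, the exonuclease that trims the stem-loop end, was 1.69-fold lower. In the other direction LSM1, a partner of LSM4 in the same ring, was 2.38-fold higher, and SMG1, the kinase of the decay factor UPF1, was 1.68-fold higher. XRN1 differed by -0.01.

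Around NPAT, of 7 measured genes of histone transcription 3 were lower, 2 were higher and 2 lay within 1.5-fold. The shares of all measured genes were 20.1% lower and 23.2% higher, and the median of the 7 was -0.25. The lower ones were CDK2, the kinase that with cyclin E phosphorylates NPAT (-5.75), and the cyclin E genes CCNE2 (-2.25) and CCNE1 (-0.70). CDK2 and CCNE2 read 6.26 and 5.77 after ANO5 siRNA, low signals that may limit these folds. CCNE2 reached the limit of 6.05 on the control array only. The acetyltransferase gene KAT5 (0.94) and its partner TRRAP (0.67) were higher. HINFP, the factor that recruits NPAT to H4 genes, differed by -0.25, and GON4L by -0.19.

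**Figure D4:**
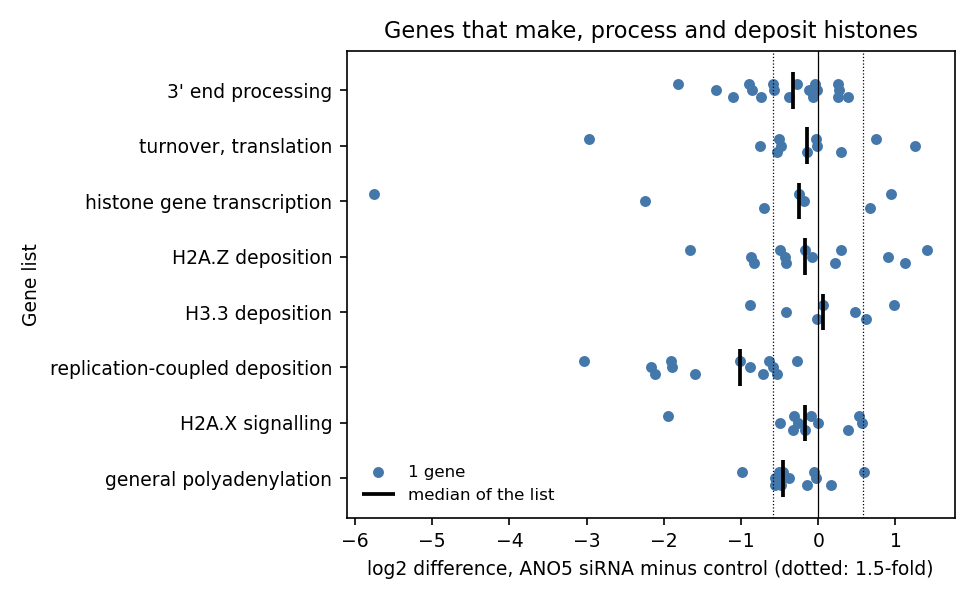
Log2 difference, ANO5 siRNA minus control (horizontal axis), for measured genes of 8 lists (rows), 1 point a gene, with the median of each list as a bar and dotted lines at 1.5-fold. The median lies furthest left for replication-coupled deposition (-1.02), and those of the other lists lie between -0.46 and 0.06.

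The chaperones that place histones during DNA replication were mostly lower. Of 13 measured genes of replication-coupled deposition 11 were lower and 0 were higher, beside 20.1% and 23.2% of all measured genes, with a median of -1.02. The H3-H4 chaperone ASF1B was 8.17-fold lower, and CHAF1B, a subunit of the assembly factor CAF-1, 4.50-fold. MMS22L was 4.35-fold lower. CDAN1 differed by -0.27. In the H3.3 list 1 of 7 measured genes was lower and 2 were higher, with a median of 0.06, which is near the 20.1% and 23.2% of all measured genes. ASF1A, the paralog of ASF1B, was 1.97-fold higher and ATRX, which deposits H3.3 with DAXX, 1.54-fold higher. DEK was 1.84-fold lower and DAXX differed by -0.01.

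Of 13 measured genes that place or remove H2A.Z 3 were lower, 3 were higher and 7 lay within 1.5-fold, with a median of -0.17. These shares too are near the 20.1% and 23.2% of all measured genes. NAP1L1, a chaperone of H2A-H2B pairs, was 3.16-fold lower, RUVBL1 1.83-fold and ANP32E, which removes H2A.Z, 1.78-fold lower. YEATS4 and DMAP1, shared by the complexes that insert and acetylate H2A.Z, were 2.66-fold and 2.19-fold higher, and ACTR6, of the inserting SRCAP complex, 1.87-fold higher. INO80 differed by -0.08. With 2 arrays, likeness of pattern between genes could not be measured, and no gene is named as following any of the 8.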

How the data were processed

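The authors deposited, for each array, values of 17345 transcript clusters, read here as log2 signal from their range of 2.13 to 18.15. For the log base, background correction, probe summary, normalization and genome build, the sources used here give nothing. Agilent Feature Extraction 12.0.3.1 is named per the submitters' processing notes, whereas the form of the cluster identifiers is that of another maker's arrays, so how the signals were made is unsure. Values were used as deposited, and 0 columns of values were left unused. Of the clusters 14544 had 1 gene symbol in the platform's annotation, 0 had several and 2801 had none, and all 14544 matched a RefSeq gene by Entrez identifier. The cluster with the highest mean was kept per gene. No detection call was used, so a fold against a low value may be a lower bound.

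The members, gene lists and thresholds were chosen with earlier results of these data known. Named were all members, a fixed set of partner genes, the genes with the largest differences each way and the one nearest 0 in each list, and the extremes of each replication-dependent class. Some genes that this rule selected are given by their list's counts only. Alternatives were 4 scalings, the median over clusters, an offset of 32 on the linear scale, other filters, and 2-fold. The calling steps were run on simulated data with planted differences far above the simulated noise. This checks the code and not the calls made on these arrays, where olfactory receptor genes differed with a standard deviation of 0.42. The number of arrays limits the precision. Python 3.11.15, numpy 2.4.6, pandas 2.3.3, statsmodels 0.14.6 (loess, span 0.4) and matplotlib 3.10.9 were used.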

Additional observations from a re-analysis of the deposited data

How the results depend on the processing

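Each of the 8 genes kept its direction and its side of 1.5-fold under the 4 scalings, the median over clusters and the offset of 32, in 48 of 48 values. The median over clusters could not move them, since each has 1 cluster. H2AX ran from -2.11 to -2, H2AZ1 from -1.71 to -1.60, SLBP from -1.22 to -1.08, NPAT from -0.54 to -0.40, H3-3B from 0.64 to 0.73 and H1-10 from -1.04 to -0.73, the last with the offset. The median of the variants was -0.50 with the offset, which shrinks differences of low signals, and -0.27 without H2AX or without H1-10 (both chosen after seeing the data), each within 1.5-fold. It stayed 0.15 to 0.55 above the mean of SLBP and NPAT. At 2-fold, 0 of the 8 genes were higher and 4 were lower, beside 11.2% and 11.3% of the measured genes. The median of the other variants turned from -0.47 to 0.21 (no filter) and 0.57 (50th percentile filter), as different genes entered it. With no filter the low-signal genes H1-7 (0.23), H2BW1 (0.21) and H3-4 (-0.96) came in, and at the 50th percentile CENPA dropped out. The median of the replication-dependent genes ran from -2.41 to -2.07. ANO5 differed by -1.70 with the offset, since its signal is low. No paired analysis was possible because each group holds 1 array.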

Other observations

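The genes listed for general polyadenylation, by which most variant mRNAs gain their tail, stayed mostly within 1.5-fold. CPSF2, CPSF3, SYMPK and CSTF2 were left out here because they were counted with the machinery that cuts histone pre-mRNA. Of those, CPSF3 (-1.10) and CSTF2 (-0.90) were lower, and CPSF2 (-0.57) and SYMPK (-0.38) lay within 1.5-fold. The 2 lists thus do not stand for wholly separate machineries. Of the 13 measured genes on this list 1 was lower, 1 was higher and 11 lay within 1.5-fold, with a median of -0.46. That median was lower than the -0.33 of the machinery that cuts histone pre-mRNA, and all measured genes had a median of 0.07. The shares of all measured genes were 20.1% lower and 23.2% higher. NUDT21, a factor that guides the choice of poly(A) site, read 13.01 after ANO5 siRNA, 1.99-fold lower than in the control. PAPOLG, a poly(A) polymerase, was 1.51-fold higher, and PAPOLA, the main poly(A) polymerase, read 15.35 and 15.32.

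Genes that act with H2A.X at DNA breaks mostly stayed within 1.5-fold. Beside 20.1% lower and 23.2% higher of all measured genes, 1 of 11 measured genes was lower and 0 were higher. The other 10 lay within 1.5-fold, and the median of the 11 was -0.17. The one that was lower was PRKDC, a kinase that phosphorylates H2A.X, with 12.26 in the control and 10.32 after ANO5 siRNA (3.84-fold lower). The phosphatase gene PPM1D read 10.43 on both arrays.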
